A study of Mus musculus with 40 samples.

Results

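The 10 genes described here are muscle splicing regulators other than Rbm20: Rbfox1, Rbfox2, Nova1, Celf1, Celf2, Mbnl1, Mbnl2, Rbm24, Ptbp1 and Rbpms. They were picked by gene name from 25462 genes tabulated for females and 24930 for males, and all 10 were found in both tables. Their exon bins, the stretches into which a gene is divided so that every transcript either holds a stretch whole or lacks it, were taken from the deposited exon tables, which gave 12 of 15053 listed bins in females and 55 of 23819 in males. RNA came from the left ventricles of 10-week-old mice in 4 groups of 5 animals, knockout and wildtype, for each sex. The labels call the mutants Rbm20 knockouts and do not say which part of the gene was changed, and all 4 groups were otherwise unlabelled for strain or treatment. Each mouse contributed 2 sequencing libraries, averaged to 1 value per mouse, except ko_f_154, for which 1 library was matched to the labels.

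Proteins of this kind bind short motifs in newly made RNA, in or near exons, and raise or lower the use of those exons according to where they bind. RBM20 itself represses the inclusion of many titin exons in the heart. RBFOX proteins bind UGCAUG, MBNL and CELF proteins act on many of the same muscle exons in opposite directions, and the balance between them shifts after birth as the heart matures.

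The labels were first checked on Rbm20. It averaged 404 ± 99.3 normalized counts in knockout and 1140.1 ± 125.2 in wildtype females, and 272 ± 35.3 in knockout and 842 ± 40.3 in wildtype males (SD, n = 5 mice each; a normalized count is a read count divided by the size factor of its library). No knockout mouse reached the lowest wildtype mouse of its sex, and reads of Rbm20 remained in the knockouts at 0.349 of the wildtype level in females and 0.322 in males. The depth in genes was 2351987 to 16973229 reads per library (median 9043245), and both ends of that range belong to ko_m_127, a knockout male. Of 7 cardiomyocyte markers, all tested in each sex, none passed the threshold in limma (2 had an unadjusted p under 0.05 in each sex). Their summed levels were 502750 to 591199 in knockout and 478004 to 567796 in wildtype females. In males the sums were 364299 to 478240 in knockouts and 414437 to 502177 in wildtypes. A comparison of genotypes cannot check the tissue label, and atrial markers are given below.

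Of the 10 regulators, Nova1 and Celf2 rose and Rbfox1 and Celf1 fell in knockout females, and Nova1 and Celf2 rose and Rbfox1 fell in knockout males, at a Benjamini-Hochberg adjusted p under 0.05 in limma over all genes. That is 4 of 10 in females, where 10.8% of the 12781 genes tested passed (5.28% rose and 5.51% fell), and 3 of 10 in males, where 15.9% of the 12506 genes tested passed (7.6% rose and 8.29% fell). The median log2 change of the 10 was 0.01 in females and -0.02 in males, beside 0.00 over all genes tested in each sex. Groups of knockout and wildtype mice did not overlap for 4 of the 10 in females and 5 of the 10 in males, against 9.14% and 12.7% of all genes tested. No regulator passed a test of the difference in response between the sexes, and of 12651 genes tested for that difference 0% passed in limma (0 in edgeR and 42 in DESeq2; 1031 in limma at an unadjusted p under 0.05). Because the 10 were chosen with results of these data known, these counts describe them and do not set them apart from other genes.

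**Figure D1:**
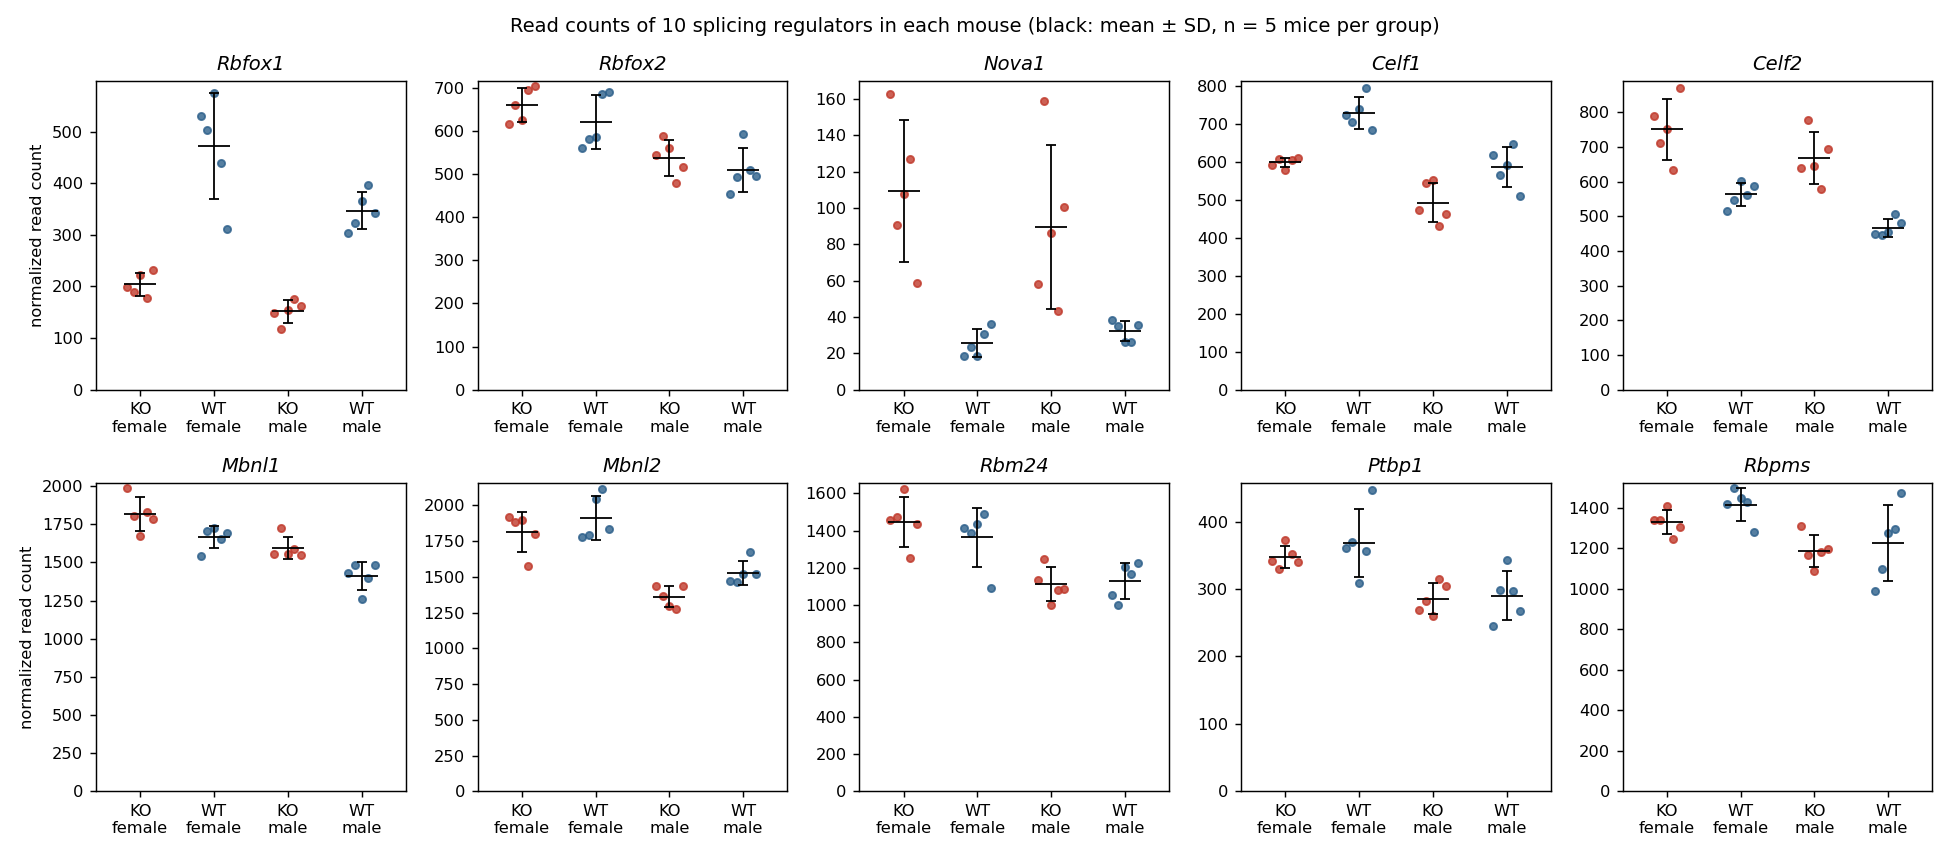
Normalized read counts of the 10 regulators, 1 panel per gene, with groups on the x axis, 1 point per mouse (red, knockout; blue, wildtype) and the mean ± SD in black (n = 5 mice). Rbfox1 is lower in every knockout mouse and Nova1 and Celf2 are higher in every knockout mouse than in any wildtype mouse of the same sex, while the groups of Rbfox2, Rbm24, Ptbp1 and Rbpms overlap.

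The promoters of Rbfox1 and Nova1, the regulators with the largest fall and the largest rise among the 10, are shown with the E-box letters CANNTG in capitals, the core motif of basic helix-loop-helix factors. They were taken from RefSeq (GRCm38.p6, 250 bases before to 50 after a gene start, on the strand of the gene, 5′ to 3′), which held 14 promoters for 8 of the 10 genes. The Nova1 window lies at chr12:46818718-46819017 on the minus strand, and the Rbfox1 window, the later of its 2 listed starts, at chr16:7069585-7069884 on the plus strand.
Nova1: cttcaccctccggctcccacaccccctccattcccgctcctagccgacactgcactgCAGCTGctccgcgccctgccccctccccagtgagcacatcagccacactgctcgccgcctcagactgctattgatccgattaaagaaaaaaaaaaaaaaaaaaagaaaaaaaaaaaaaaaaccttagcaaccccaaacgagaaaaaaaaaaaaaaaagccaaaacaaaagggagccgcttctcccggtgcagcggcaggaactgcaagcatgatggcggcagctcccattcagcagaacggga
Rbfox1: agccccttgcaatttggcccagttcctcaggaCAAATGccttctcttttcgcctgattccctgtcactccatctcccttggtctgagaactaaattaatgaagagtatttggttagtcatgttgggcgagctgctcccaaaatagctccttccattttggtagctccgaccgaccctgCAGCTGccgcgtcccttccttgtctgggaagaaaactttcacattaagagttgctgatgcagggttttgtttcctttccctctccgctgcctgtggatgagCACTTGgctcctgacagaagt
The Nova1 window holds 1 match and this Rbfox1 window 3, while the window of the earlier Rbfox1 start, at chr16:5884543-5884842, holds 0. The letters CANNTG, which read the same on both strands, occur in 23756 of 32851 promoters of this length (72.3%). A match is a description of the letters and not a measured site.

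RBFOX proteins were split, with Rbfox1 lower in knockout hearts and Rbfox2 not past the threshold. Rbfox1 (ENSMUSG00000008658.17, chr16:5703219-7229390, plus strand, GRCm39), an activator or repressor of exons in muscle and neurons, had 177, 190.0, 198, 222 and 232 normalized counts in knockout females, against 311, 438, 503, 531 and 575 in wildtype females. In males it had 118, 149, 153.6, 162 and 176 in knockouts, against 304, 323, 343, 366 and 396 in wildtypes. The groups did not overlap in either sex, and the lowest wildtype female, wt_f_144, stood well below the other 4. Its log2 change was -1.18 ± 0.14 in females (0.441 of the wildtype level, adjusted p = 0.000285) and -1.19 ± 0.10 in males (0.438 of the wildtype level, adjusted p = 4.4e-06; ± SE, limma).

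Mouse wt_f_144 also carried RNA of Myl7, the atrial myosin light chain, at 1416 normalized counts, as did knockout females ko_f_151 (8051) and ko_f_154 (1223); the other 7 females had 0 to 173. Summed atrial markers were 8982 to 42031 in the knockout and 5225 to 11496 in the wildtype females. Without these 3 females the log2 change of Rbfox1 in females was -1.30 (adjusted p = 0.00011), that of Nova1 2.04 (adjusted p = 0.0018), that of Celf1 -0.30 (adjusted p = 0.022) and that of Celf2 0.50 (adjusted p = 0.0049; all limma), so the 4 calls in females held. In males Myl7 was at 0.213 to 1.58 in knockouts and 0 to 692 in wildtypes, and 2 of 9 atrial markers rose (Nppa and Pam, as in females) and 3 fell. Of all genes tested in males 7.6% rose and 8.29% fell. The atrial sums were 9308 to 15635 in the knockout and 4191 to 8527 in the wildtype males. In both sexes the sums include Nppa and Pam, which rose, while the highest Myl7 in males was in a wildtype. A sum therefore cannot be read as an amount of atrial tissue. The part of the atrial markers in the male results was not tested.

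Rbfox2 (ENSMUSG00000033565.19, chr15:76963190-77191204, minus strand), the more widely expressed member of the family, ranged from 616 to 703 in knockout females against 560.2 to 691 in wildtype females, and from 480.5 to 588 in knockout males against 454 to 592 in wildtype males. The groups overlapped. Its log2 change was 0.09 ± 0.07 in females (adjusted p = 0.489) and 0.08 ± 0.08 in males (adjusted p = 0.564, limma), and 2 SE either side span -0.06 to 0.24 and -0.08 to 0.24.

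Nova1 (ENSMUSG00000021047.8, chr12:46741300-46865712, minus strand), best known as a splicing regulator of neurons, showed the largest rise of the 10 and the widest spread. It had 58.6, 90.4, 108, 126.8 and 163 normalized counts in knockout females, against 18.6, 18.7, 23.4, 30.9 and 36.4 in wildtype females. Knockout males had 43.1, 58.1, 86.5, 101 and 159, against 26.1, 26.4, 34.99, 35.4 and 38.5 in wildtype males. Every knockout mouse lay above every wildtype mouse of its sex, although the lowest knockout male was close to the highest wildtype male. Its log2 change was 2.02 ± 0.25 in females (4.06-fold, adjusted p = 0.00035) and 1.32 ± 0.26 in males (2.49-fold, adjusted p = 0.00318; limma).

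The coefficient of variation of Nova1 was 35.7% in knockout and 30.5% in wildtype females, and 50.3% in knockout and 17.6% in wildtype males, against 2.13% to 24.6% for the other 9 regulators and Rbm20 in any group. The 2 libraries of a mouse differed for Nova1 by a median of 0.10 on the log2 scale in females and 0.17 in males, while the SD between mice was 0.55 in knockout and 0.43 in wildtype females, and 0.72 in knockout and 0.25 in wildtype males. The male minus female difference in its log2 change was -0.70 ± 0.40, with 2 SE either side from -1.51 to 0.10 (unadjusted p = 0.0949, adjusted p = 0.71, limma). It was the largest sex difference among the 10 and did not pass the threshold.

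Since Nova1 is a neuronal gene, markers of nerve and Schwann cells were set beside it. Of 11 such markers 4 passed the filter on low values in each sex and none passed the threshold in limma (0 had an unadjusted p under 0.05). Their summed level ran from 90.02 to 299 in knockout and 100.4 to 141.6 in wildtype females, and from 64.4 to 122 in knockout and 87.8 to 126.9 in wildtype males. Of these markers Snap25, Syt1 and Nefl stood out in 1 knockout female, ko_f_151, at 29.9, 11.5 and 10.00 normalized counts. In the other 4 knockout females Snap25 was at 0, and in wildtype females it reached at most 0.531. Syt1 averaged 0.214 in knockout and 0.255 in wildtype males. Nefm, which did not pass the filter, went the other way, with 0 to 1.44 in knockout and 1.64 to 4.84 in wildtype females. In males Nefm was at 0 to 1.06 in knockouts and 1.42 to 4.05 in wildtypes. Without ko_f_151 the log2 change of Nova1 in females was 2.01 (adjusted p = 0.000826, limma).

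CELF proteins moved in opposite directions in females. Celf1 (ENSMUSG00000005506.17, chr2:90770727-90849842, plus strand), which controls splicing in the embryonic heart and the decay of messenger RNA, had 579, 591, 606, 607 and 608 normalized counts in knockout females, against 684, 705, 722, 739 and 794 in wildtype females. In males it had 431, 462, 474, 544 and 551 in knockouts, against 508, 565, 590.5, 618 and 646 in wildtypes. The female groups were apart, and the male groups overlapped through wt_m_139, ko_m_106 and ko_m_127. Its log2 change was -0.28 ± 0.05 in females (0.822 of the wildtype level, adjusted p = 0.00572) and -0.25 ± 0.09 in males (0.84 of it, adjusted p = 0.0626; limma). The male value passed the threshold when wt_m_139 (adjusted p = 0.0287), ko_m_127 (0.0386) or ko_m_106 (0.0462) was left out, and the adjusted p of its single-mouse omissions in limma ran from 0.0287 to 0.144.

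Celf2 (ENSMUSG00000002107.19, chr2:6544505-7514374, minus strand), a relative with similar sequence preference that is abundant in brain, heart and immune cells, had 634, 710.4, 751, 789 and 869 normalized counts in knockout females, against 517, 548, 560.2, 589 and 603 in wildtype females. Knockout males had 579, 639, 646, 696 and 779, against 445, 448, 454, 482 and 507 in wildtype males. All knockout mice lay above all wildtype mice of their sex. The log2 change was 0.41 ± 0.08 in females (1.33-fold, adjusted p = 0.00647) and 0.51 ± 0.08 in males (1.42-fold, adjusted p = 0.000538; limma).

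Markers of other cell types moved in the same hearts as Celf2 and Celf1. Beside the counts below, 5.28% of all genes tested rose and 5.51% fell in females, and 7.6% rose and 8.29% fell in males. Fibroblast markers rose, 5 of 10 in females and 6 of 10 in males, with summed levels of 40655 to 54269 in knockout and 31559 to 39573 in wildtype females and 32215 to 43196 in knockout and 21673 to 35314 in wildtype males. Endothelial markers fell, 3 of 10 in each sex, with sums of 12626 to 13610.0 in knockout and 13915 to 15339 in wildtype females and 9012 to 11416 in knockout and 12742 to 14464 in wildtype males. Macrophage and myeloid markers gave 0 of 10 in each sex in limma (also 0 at an unadjusted p under 0.05), with sums of 2811 to 3947 in knockout and 3068 to 4739.99 in wildtype females and 2477 to 3571 in knockout and 2821 to 4154 in wildtype males. Mural cell markers gave 1 lower of 9 tested in each sex, and adipocyte markers 4 higher of 7 in females, with sums of 418 to 2089 in knockout and 192 to 420 in wildtype females, and 0 of 2 in males. Lymphocyte markers left 1 gene to test in females and 0 in males, with sums of at most 58.4 in any mouse. Of the skeletal muscle markers Acta1 rose and Ckm fell in both sexes, and the other 6 did not pass the filter on low values. Whether the cell types contributed to the changes of the regulators was not tested, and in bulk tissue fewer cells of a type and less RNA per cell cannot be told apart.

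MBNL proteins, which promote adult exon choices in striated muscle, did not pass the threshold in limma. Mbnl1 (ENSMUSG00000027763.14, chr3:60380251-60537171, plus strand) had 1674, 1787, 1805, 1833 and 1985 normalized counts in knockout females, against 1543, 1656, 1692, 1706 and 1725 in wildtype females. Knockout males had 1549.7, 1554, 1556, 1585 and 1724, against 1259, 1397, 1432, 1483 and 1485 in wildtype males. The male groups did not overlap and the female groups did. The log2 change was 0.13 ± 0.06 in females (adjusted p = 0.204) and 0.18 ± 0.07 in males (adjusted p = 0.0941; limma).

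Mbnl2 (ENSMUSG00000022139.18, chr14:120513081-120669109, plus strand) had 1573 to 1916 in knockout females against 1782 to 2116 in wildtype females. Knockout males had 1276, 1296, 1364, 1434 and 1439, against 1461, 1472, 1520.1, 1520.2 and 1674 in wildtype males, again without overlap. The log2 change was -0.08 ± 0.07 in females (adjusted p = 0.566) and -0.17 ± 0.07 in males (adjusted p = 0.106; limma). In the authors' deposited table, which counts every library as a replicate, Mbnl1 had an adjusted p of 0.00705 in females and 0.000101 in males, and Mbnl2 of 0.326 in females and 0.000254 in males.

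Rbm24, Ptbp1 and Rbpms did not pass the threshold in either sex, and their groups overlapped in both. Rbm24 (ENSMUSG00000038132.7, chr13:46571910-46584571, plus strand), which promotes the inclusion of muscle exons, ranged from 1251 to 1626 normalized counts in knockout females against 1090.0 to 1491 in wildtype females, and from 999.8 to 1249 in knockout males against 1002 to 1225 in wildtype males. The log2 change of Rbm24 was 0.09 ± 0.09 in females (adjusted p = 0.589) and -0.03 ± 0.08 in males (adjusted p = 0.871; limma).

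Ptbp1 (ENSMUSG00000006498.17, chr10:79690261-79700605, plus strand), a repressor of exons that declines as muscle and neurons differentiate, ranged from 330.4 to 373 in knockout females against 309 to 447 in wildtype females, and from 261 to 315 in knockout males against 246 to 343 in wildtype males. The log2 change of Ptbp1 was -0.08 ± 0.09 in females (adjusted p = 0.63) and -0.02 ± 0.09 in males (adjusted p = 0.931; limma). Rbpms (ENSMUSG00000031586.18, chr8:34272671-34419891, minus strand), a splicing regulator of heart and smooth muscle, ranged from 1245 to 1408 in knockout females against 1282 to 1499 in wildtype females, and from 1089.5 to 1309.5 in knockout males against 992 to 1476 in wildtype males. For Rbpms the log2 change was -0.09 ± 0.06 in females (adjusted p = 0.366) and -0.03 ± 0.10 in males (adjusted p = 0.858; limma). For these 3 genes 2 SE either side reached at most 0.27 above and 0.25 below 0 on the log2 scale.

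**Figure D2:**
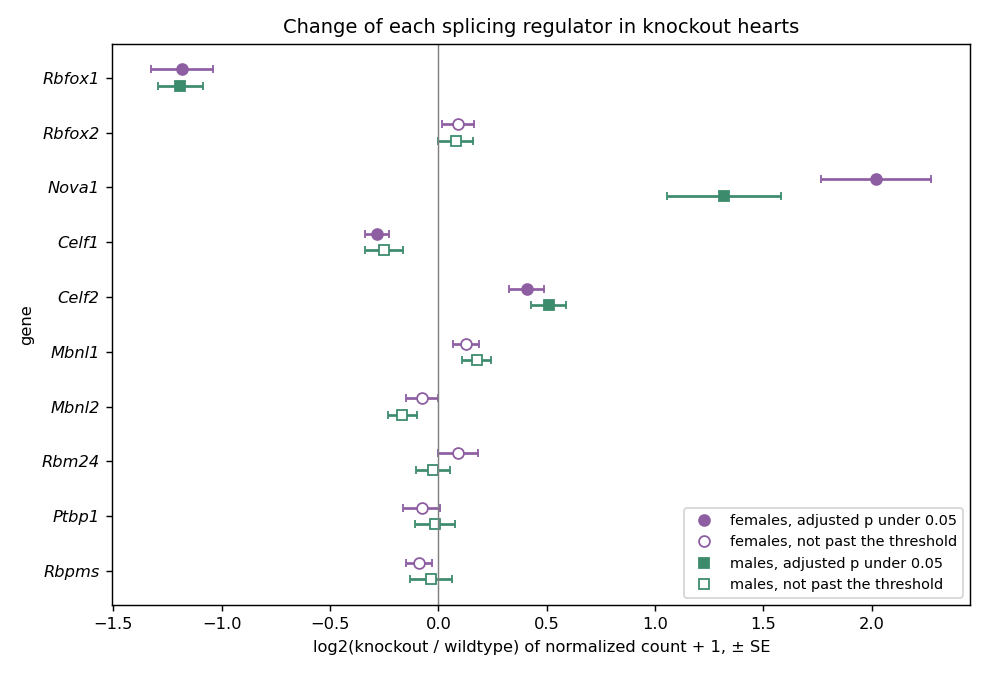
The log2 ratio of knockout to wildtype on the x axis for each regulator on the y axis, with its SE (circles, females; squares, males; filled, adjusted p under 0.05 in limma). Both sexes give Rbfox1 near -1.2, Celf2 between 0.41 and 0.51 and Nova1 at 2.02 in females and 1.32 in males, and the other genes lie within 0.29 of 0.

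Levels could be ordered once divided by gene length, taken as the merged exons in GENCODE M21. Rbm24 was the most abundant of the 10 in every group, at 415 ± 38.2 normalized counts per kilobase in knockout and 391 ± 45.2 in wildtype females and 318 ± 26.1 in knockout and 324 ± 27.9 in wildtype males (SD, n = 5). Rbpms and Mbnl2 followed next, in that order, and Celf2 and Nova1 were last in all 4 groups. Rbfox1 held the fourth place in wildtype hearts, at 107 ± 23.3 per kilobase in females and 78.7 ± 8.20 in males, where its range overlapped that of Mbnl1 below it. In knockout hearts it stood eighth, at 46.3 ± 5.17 in females and 34.5 ± 4.92 in males, below Celf1 in both sexes without overlap. Nova1 remained last at 12.5 ± 4.46 in knockout and 2.93 ± 0.894 in wildtype females and 10.2 ± 5.15 in knockout and 3.69 ± 0.649 in wildtype males, in each group below the lowest Celf2 value. Neighbours in the middle of the order, Rbfox2, Ptbp1 and Celf1, had overlapping ranges in each group. Merged exons count every annotated exon, so a gene with many unused exons, such as Celf2 at 25884 bases, is set low on this scale.

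**Figure D3:**
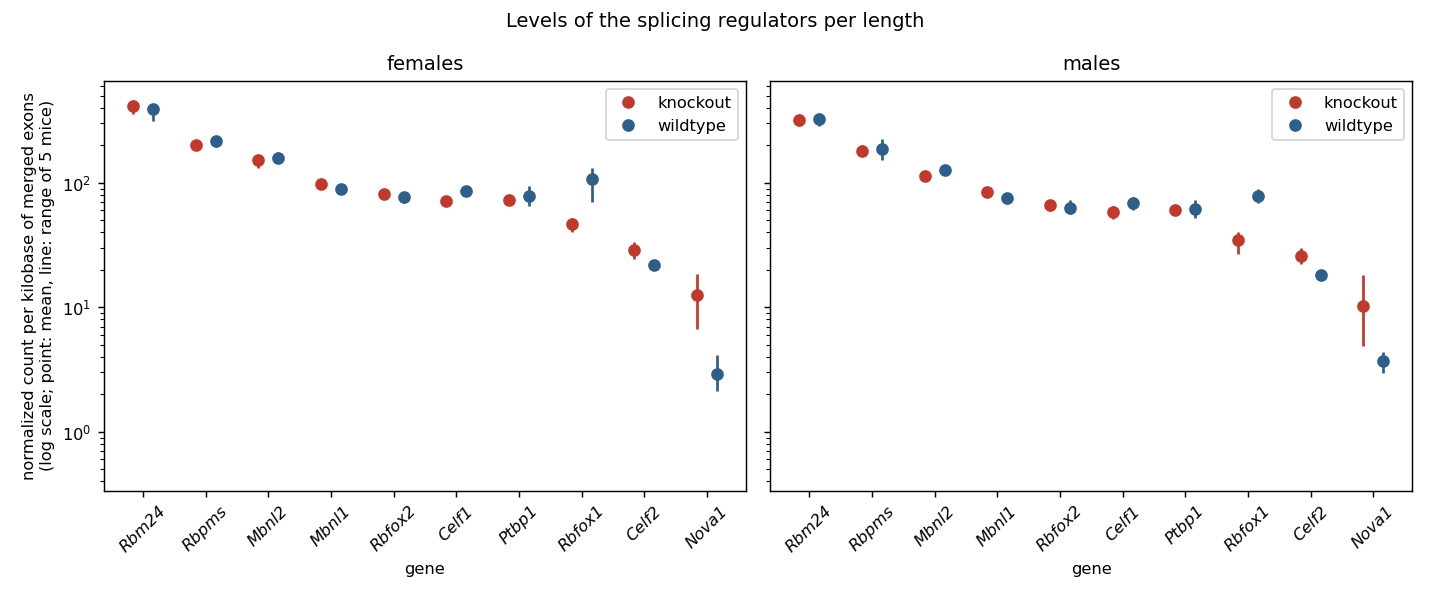
Normalized counts per kilobase of merged exons (y axis, log scale) for each regulator (x axis), females on the left and males on the right, with the mean as a point and the range of 5 mice as a line (red, knockout; blue, wildtype). Rbfox1 stands at 46.3 in knockout and 107 in wildtype females and crosses several neighbours, and Nova1 is lowest in all groups.

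The genes whose pattern over the 20 mice was nearest to that of Rbfox1 or Nova1 were found among the 9350 genes that averaged 50 or more in females and also in males, by the root mean square difference of log2 values centred on the wildtype mean of the sex. For Rbfox1 these were Echdc3 (0.18), Tnfaip8 (0.21) and Egflam (0.23), whose log2 changes were -1.33, -1.30 and -0.88 in females and -1.17, -1.42 and -1.29 in males. For Nova1 they were Gnao1 (0.41), Myot (0.43) and Casq1 (0.45), with log2 changes of 1.67, 1.67 and 1.87 in females and 1.53, 1.43 and 1.25 in males. The nearest gene to Nova1 was thus further from it than Egflam was from Rbfox1, and what part the spread of Nova1 between mice had in that was not tested. Nova1 averaged 25.6 in wildtype females and 32.3 in wildtype males, so it reached a mean of 50 only through the knockouts. The genes were picked by this distance, so their similar log2 changes are a description and add no evidence.

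Among 20 other family members and partners of the regulators, 19 were found in the female table and 18 in the male table, and 11 passed the filter in each sex. In females 0 rose and 3 fell, and in males 1 rose and 3 fell (medians of -0.06 and -0.14 on the log2 scale). Of all genes tested 10.8% passed in females and 15.9% in males. Rbpms2, a close relative of Rbpms, averaged 295 ± 33.2 normalized counts in knockout and 361 ± 16.8 in wildtype females and 245 ± 18.3 in knockout and 306 ± 10.1 in wildtype males, a log2 change of -0.30 ± 0.08 in females (adjusted p = 0.0251) and -0.32 ± 0.07 in males (adjusted p = 0.00573; limma). Raver2, a partner of PTB proteins, fell by 0.59 in females (adjusted p = 0.00835) and by 0.40 in males (adjusted p = 0.0211; limma, log2 scale).

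Nova2, the relative of Nova1, went the other way from it: it averaged 63.4 ± 11.4 normalized counts in knockout and 83.4 ± 4.23 in wildtype females (log2 change -0.41 ± 0.11, adjusted p = 0.0361, limma). In males it averaged 54.9 ± 13.6 in knockouts and 72.0 ± 16.2 in wildtypes (log2 change -0.39 ± 0.18, adjusted p = 0.157, limma). Ptbp2, the relative that takes the place of PTBP1 in neurons, averaged 167 ± 12.9 in knockout and 132 ± 13.7 in wildtype males (log2 change 0.34 ± 0.09, adjusted p = 0.0151) and had a log2 change of 0.16 ± 0.07 in females (adjusted p = 0.158; limma). Khdrbs3, a STAR family splicing regulator, averaged 262 ± 24.7 in knockout and 330.3 ± 34.1 in wildtype males (log2 change -0.33 ± 0.09, adjusted p = 0.0182), with -0.13 ± 0.07 in females (adjusted p = 0.283; limma). Qk, the most abundant partner and a splicing regulator of the heart, had log2 changes of -0.06 ± 0.07 in females (adjusted p = 0.617) and 0.08 ± 0.07 in males (adjusted p = 0.494; limma), and Rbm38, the relative of Rbm24, of -0.06 ± 0.08 (adjusted p = 0.697) and -0.29 ± 0.10 (adjusted p = 0.0665; limma).

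Exon bins of the regulators came next. The deposited exon tables keep only bins whose unadjusted p in the authors' DEXSeq test did not exceed 0.05 (a test of unequal use of a bin relative to the rest of its gene), so the members' listed bins were chosen on the same comparison and carry no further test here. The tables print the start and end of the gene, so where a bin lies within its gene is not known. Of the 12 listed bins in females 1 had an authors' adjusted p under 0.05, against 5.53% of all listed bins. Of the 55 in males 5 did, in 4 genes, against 9.06%. Only 2 bins were listed in both sexes, Celf1 bin 31 and Rbpms bin 20.

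Celf1 bin 31 was the bin past that threshold in both sexes in the authors' deposited tables, with adjusted p = 4.07e-17 in females and 5.63e-13 in males. Per 1000 reads of the gene it held 122, 122, 141.7, 145 and 151.5 reads in knockout females, against 80.7, 84.5, 89.6, 91.1 and 100.2 in wildtype females. In males it held 127.6, 131, 140.5, 158 and 165 in knockouts, against 87.0, 87.5, 90.7, 92.4 and 96.1 in wildtypes. Every knockout mouse had a larger share than every wildtype mouse in both sexes. The means were 136 ± 13.5 in knockout and 89.2 ± 7.42 in wildtype females and 144.3 ± 16.5 in knockout and 90.7 ± 3.78 in wildtype males, a log2 difference of 0.61 in females and 0.67 in males.

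The size of that difference depends on the measure, because Celf1 as a whole averaged lower in knockout hearts. That fall passed the threshold in females and not in males (adjusted p = 0.0626, limma). Divided by the library size factor rather than by the gene's reads, Celf1 bin 31 averaged 81.6 ± 9.42 in knockout and 65.2 ± 7.77 in wildtype females and 72.1 ± 14 in knockout and 53.1 ± 5.97 in wildtype males, log2 differences of 0.32 and 0.44. On that scale the groups overlapped, with 69.9 to 91.9 in knockout and 57.0 to 74.2 in wildtype females and 56.8 to 87.9 in knockout and 43.8 to 59.4 in wildtype males. The neighbouring Celf1 bin 32, listed in males, held 638 ± 37.7 reads per 1000 in knockouts and 701 ± 44.8 in wildtypes (authors' deposited adjusted p = 0.248). In females Celf1 bin 23 held 1.06 ± 1.00 in knockouts and 4.45 ± 0.735 in wildtypes, without overlap but on 39 reads in all 10 mice (authors' deposited adjusted p = 0.0848).

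**Figure D4:**
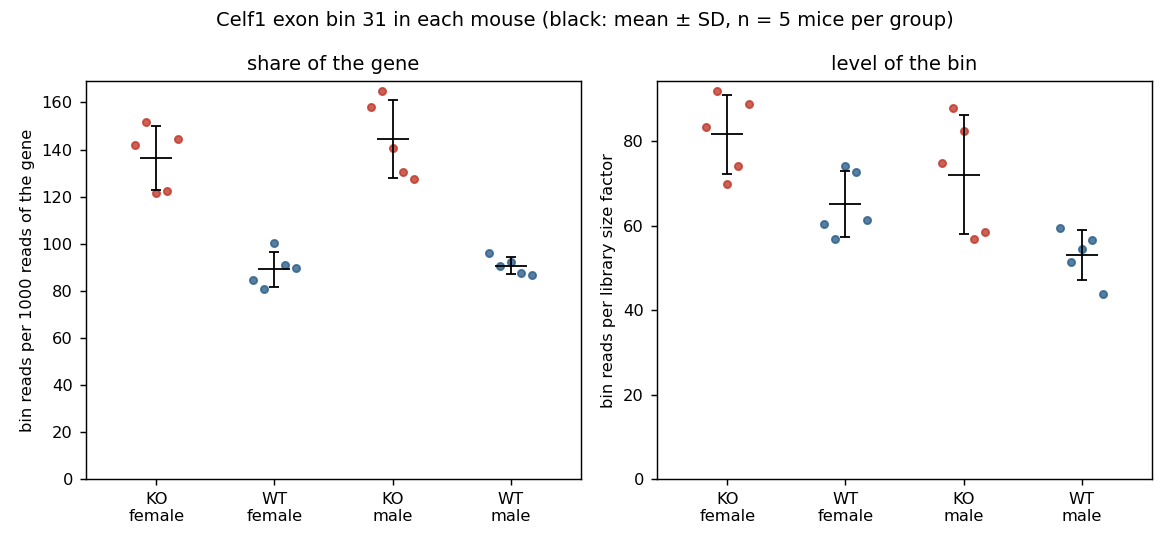
Celf1 exon bin 31 in each mouse as its share of the gene (left, bin reads per 1000 gene reads) and as its level (right, bin reads per library size factor), with 1 point per mouse and the mean ± SD in black (n = 5; red, knockout; blue, wildtype). The shares do not overlap between knockout and wildtype in either sex, with 136 against 89.2 in females and 144.3 against 90.7 in males, while the levels overlap.

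At the ends of many male bins stood 2 mice. Over the 15090 listed male bins with at least 100 reads in all, the wildtype male wt_m_139 had the lowest share of the 10 males in 33.9% and the highest in 23.02%, and the knockout male ko_m_127 had the lowest in 13.5% and the highest in 21.8%. The other 8 males were lowest in 4.07% to 14.1% and highest in 4.29% to 16.9%. Among the 49 bins of the regulators with that many reads, wt_m_139 was the lowest in 30 and the highest in 6, and ko_m_127 the highest in 19 and the lowest in 12. The libraries of wt_m_139 also had the highest shares of mitochondrial reads of the 39, at 36.6% and 36.3%, against 24.5% to 36.0% in the others. What part this had in the listed bins was not tested. Male bins of the regulators are therefore given with and without these mice, singly or as medians, an omission chosen after the data were seen. Bins of the partners and target genes are given with all males only. For Celf1 bin 31 the male log2 difference was 0.67 with all males, 0.65 without wt_m_139 and 0.66 without both. For Celf1 bin 32 it was -0.14, -0.10 and -0.07 in the same order.

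Mbnl1 had 20 listed bins in males and 1 in females. In 18 of the 20 the share was higher in knockout males, and in 17 wt_m_139 was the lowest of the 10 males. The other 2, bins 55 and 56, held the most reads of the 20, and in them wt_m_139 was the highest, at 406 and 321 reads per 1000 gene reads. All 20 are set against the same gene reads, so a shift in large bins moves the rest. They are not 20 separate observations. The median size of the log2 differences over the 20 bins was 0.48 with all males, 0.32 without wt_m_139 and 0.26 without wt_m_139 and ko_m_127, and 8 of the 20 shrank by more than 1.5 times without wt_m_139. Mbnl1 bin 42, the 1 with an authors' deposited adjusted p under 0.05 (0.00443), held 8.62, 9.16, 11.8, 13.02 and 16.7 reads per 1000 gene reads in knockout males, against 3.27, 5.82, 6.21, 7.08 and 9.46 in wildtype males. The groups overlapped, with wt_m_139 lowest and ko_m_127 highest. Its log2 difference was 0.90 with all males, 0.73 without wt_m_139 and 0.58 without both.

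Rbm24 bin 1 (authors' deposited adjusted p = 0.0105) held 117, 121, 125.5, 133 and 162 reads per 1000 gene reads in knockout males, against 79.0, 105.4, 105.7, 112.8 and 114 in wildtype males. The groups did not overlap, and the outlying values were again ko_m_127 at the top and wt_m_139 at the bottom. Its log2 difference was 0.35 with all males, 0.27 without wt_m_139 and 0.18 without both. The 5 Mbnl2 bins listed in males had a median size of 0.32, which became 0.21 without wt_m_139 and 0.15 without both, and none had an authors' adjusted p under 0.05.

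Rbpms had 13 listed bins in males and 4 in females. The median size of its 13 male log2 differences was 0.34 with all males, 0.37 without wt_m_139 and 0.35 without both. That median hides bins that moved in different ways, since 6 of the 13, bins 15 to 20, lay nearer 0 without both mice. In 6 of the 13 bins ko_m_127 was the lowest of the males. Bins 14 to 20, a run of 7, all had lower shares in knockout males, with log2 differences of -0.34 to -0.19. Without both mice those of bins 15 to 20 were -0.25 to -0.15. A read that spans neighbouring bins can count in each, so the 7 are not separate observations. Rbpms bin 18 (authors' deposited adjusted p = 0.0168) held 80.4, 85.2, 87.1, 91.6 and 95.6 reads per 1000 gene reads in knockout males, against 98.6, 99.6, 104, 108 and 119.9 in wildtype males, without overlap, a log2 difference of -0.27 with all males and -0.25 without wt_m_139 and ko_m_127. Rbpms bin 20, the 1 also listed in females, held 103 ± 6.65 in knockout and 118 ± 5.82 in wildtype males (authors' deposited adjusted p = 0.226) and 107 ± 2.97 in knockout and 117 ± 6.55 in wildtype females (authors' deposited adjusted p = 0.773).

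Rbpms bins 34 to 38 went the other way in males, with log2 differences of 0.53 to 2.65, though bins 35 to 38 rest on 20 to 51 reads each and ko_m_106 holds 10 to 24 of the 17 to 42 knockout reads. Without ko_m_106, an omission also chosen after the data were seen, the log2 differences of bins 35 to 38 were 1.11 to 1.69, against 2.05 to 2.65 with all males, and that of bin 34 was 0.48. Rbpms bin 34 (authors' deposited adjusted p = 0.00129) held 78.7, 106.5, 119, 126.3 and 127.4 reads per 1000 gene reads in knockout males, against 61.9, 67.5, 69.4, 89.0 and 99.4 in wildtype males. The groups overlapped through the lowest knockout, ko_m_130. Its log2 difference was 0.53 with all males and 0.56 without wt_m_139 and ko_m_127. The gene as a whole was at 0.976 of the wildtype level in knockout males, so shares and levels of its bins gave log2 differences that lay close together, -0.27 and -0.30 for bin 18 and 0.53 and 0.45 for bin 34.

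**Figure D5:**
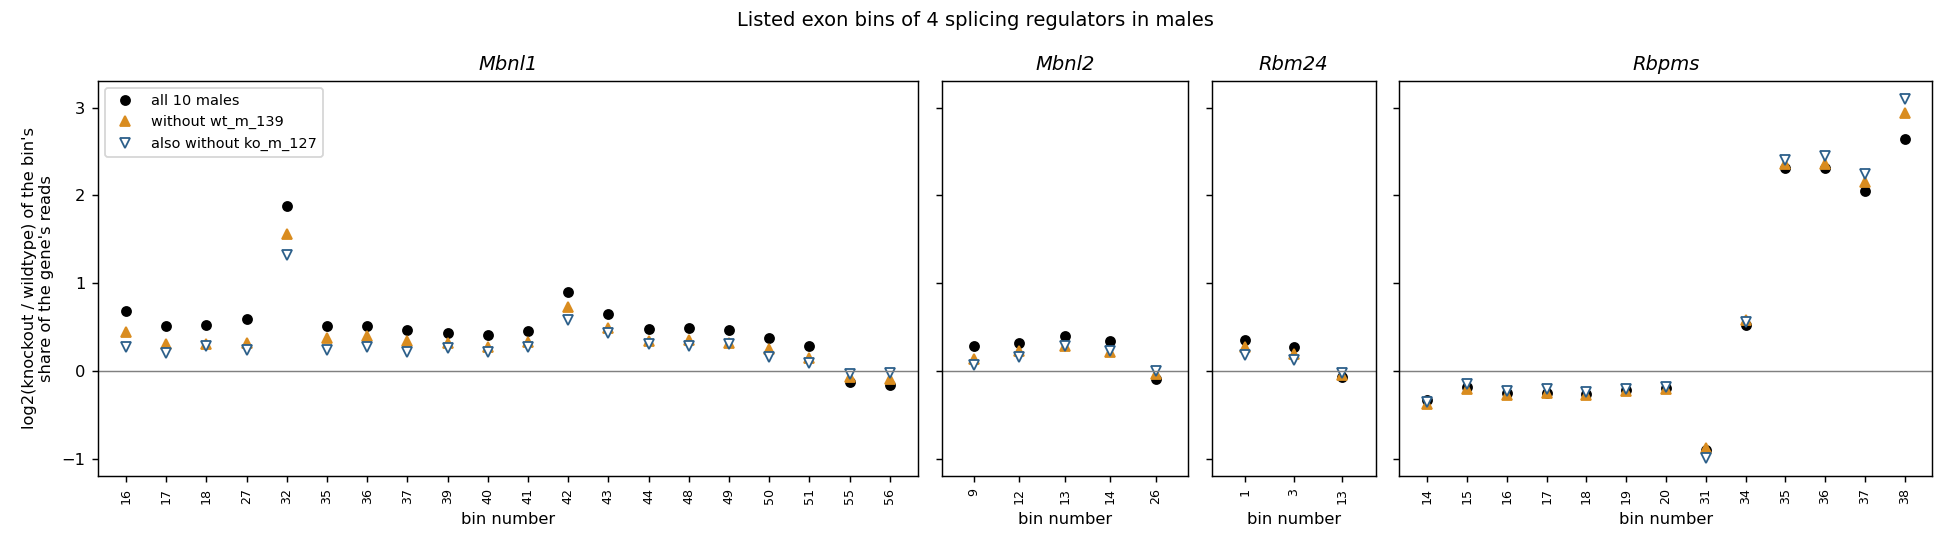
The log2 ratio of knockout to wildtype of a bin's share of its gene's reads (y axis) for each listed bin by number (x axis) of Mbnl1, Mbnl2, Rbm24 and Rbpms in males, with all 10 males (black circles), without wt_m_139 (orange triangles) and also without ko_m_127 (open triangles). The values of Mbnl1, Mbnl2 and Rbm24 move towards 0 as the mice are left out (medians of 0.48, 0.32 and 0.27 become 0.26, 0.15 and 0.12), while 6 of the 13 values of Rbpms do and its median is 0.34 with all males and 0.35 without both.

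The remaining regulators had few listed bins and none with an authors' adjusted p under 0.05. Celf2 had 7 in males and 0 in females, Rbfox2 2 in each sex, Rbfox1 2 in males and Ptbp1 2 in females and 1 in males. Nova1 had 0 in both sexes. The median size of the 7 Celf2 log2 differences in males was 0.49 with all males, 0.32 without wt_m_139 and 0.29 without wt_m_139 and ko_m_127. Ptbp1 bin 18 had 0.48, 0.37 and 0.23 in the same order. The medians of the 2 male bins were 0.42, 0.49 and 0.42 for Rbfox1 and 0.72, 0.77 and 0.83 for Rbfox2. The 2 Rbfox1 bins in males had lower shares in knockouts, at 67.3 ± 20.5 in knockouts and 85.7 ± 9.24 in wildtypes for bin 28 and 29.4 ± 11.2 in knockouts and 41.4 ± 7.26 in wildtypes for bin 29, with overlapping groups. Of the 10 partners with a listed bin in males, 1, Qk, had bins past the authors' adjusted p of 0.05, where 14.5% of all genes with a listed bin did. In females 0 of 5 did, against 5.43%. Qk bin 1 held 245 ± 19.05 reads per 1000 in knockout and 295 ± 23.4 in wildtype males (authors' deposited adjusted p = 0.000272). Its bin 10 held 22.1 ± 3.51 in knockout and 16.2 ± 2.71 in wildtype males (authors' deposited adjusted p = 0.00747).

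The exons on which such proteins act were looked at in a list of 36 genes that carry known targets of RBFOX, CELF, MBNL, RBM24, PTBP or RBM20 proteins. As genes, 34 were tested in each sex, with 1 past the threshold upward and 2 downward in females and 3 upward and 3 downward in males (medians of -0.02 in both sexes). Of all genes tested 10.8% passed in females and 15.9% in males. Enah, an actin regulator, rose 1.61-fold in females and 2.05-fold in males (adjusted p = 0.00351 and 0.000475, limma). Slc25a3, the mitochondrial phosphate carrier, fell to 0.80 and 0.74 of the wildtype level (adjusted p = 0.0109 and 0.0117, limma). These 2 passed in both sexes. Clcn1 fell to 0.238 of the wildtype level in males (adjusted p = 2.87e-05, limma) and was at 0.633 in females (adjusted p = 0.334, limma). Cacna1s fell to 0.672 in females (adjusted p = 0.0237, limma). In males Ank2 fell to 0.83, and Fxr1 and Camk2d rose 1.18-fold and 1.24-fold (adjusted p = 0.0486, 0.0287 and 0.0182, limma). All these genes were named after their values were seen. As exon bins, 29 of the 36 had a listed bin in females and 32 in males, and 10 in females and 14 in males had one with an authors' adjusted p under 0.05, where 5.43% of all genes with a listed bin did in females and 14.5% in males.

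The 5 target genes with the smallest authors' p were the same in both sexes: Ldb3, Ttn, Camk2d, Ryr2 and Pdlim5. In Ldb3, a Z-disc protein, bin 17 held 63.4 ± 7.35 reads per 1000 gene reads in knockout and 4.12 ± 0.492 in wildtype females and 71.4 ± 7.89 in knockout and 5.36 ± 0.594 in wildtype males. In Camk2d, a calcium-dependent kinase, bin 50 held 33.1 ± 6.02 in knockout and 4.87 ± 2.36 in wildtype females and 36.6 ± 3.38 in knockout and 5.03 ± 1.28 in wildtype males. In Ryr2, the calcium release channel, bin 32 held 2.58 ± 0.768 in knockout and 0.224 ± 0.137 in wildtype females and 3.30 ± 0.404 in knockout and 0.262 ± 0.0855 in wildtype males.

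In Pdlim5, a Z-disc adaptor, bin 26 went the other way, with 34.6 ± 2.76 in knockout and 49.3 ± 1.95 in wildtype females and 31.8 ± 3.21 in knockout and 46.5 ± 3.06 in wildtype males. Ttn held 84.1% of the target bins past the threshold in females and 61.8% in males, led by different bins in each sex. All 4 of the bins given here for Ldb3, Camk2d, Ryr2 and Pdlim5 had groups without overlap in both sexes. They were picked by the smallest authors' p of this same comparison, so the lack of overlap is a description and adds no evidence. Ttn, Ldb3, Camk2d and Ryr2 are established targets of RBM20 itself, and which of these bins respond to Rbm20 and which to the regulators described here cannot be told apart in this design.

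Within the knockout mice some regulators ranked the animals alike and others did not. In knockout males Nova1 and Celf2 gave the same order, from ko_m_106 through ko_m_130, ko_m_127 and ko_m_97 down to ko_m_128. Mouse ko_m_106 had the highest Nova1, Celf2 and Mbnl1 and the lowest Rbfox1 of the 5 knockout males, at 159, 779, 1724 and 118 normalized counts. Among knockout females, ko_f_155 had the highest Celf2 and the lowest Nova1, at 869 and 58.6, and also the highest Rbfox1, at 232. These rankings rest on 5 mice in each group and are a description.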

How the data were processed

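RNA from 20 mice was sequenced on a BGISEQ-500 after extraction with TRI Reagent, per the labels. Reads were aligned with STAR 2.7.10a to GRCm39 and genes were tested with DESeq2, per the submitters' processing notes. The counting program and annotation release are not given in the sources used here. Females and males have a gene table each. Its deposited values are a signal, the reads of a gene after division by a size factor for the library. In every library 100% of values were whole reads to a tolerance of 1e-06 of the read count. They also hold the authors' log2 fold changes and adjusted p-values. Exon tables, as deposited, give raw counts for DEXSeq bins and the authors' p-values; both male exon tables hold the same bins. Females and males were scaled apart, so no level was tested across sexes. Counting error in bins of few reads was not modelled.

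Columns were matched to mice through the labels. Of the female gene values, 1 column of per-sample values matched no label and was not used, which leaves 39 of 40 libraries. A mouse's value is the mean of its libraries, and n is mice. limma 3.58.1 in R 4.3.3 (variance trend) was run on log2(value + 1) for genes with a mean of at least 10, two-sided, with Benjamini-Hochberg adjustment over all genes tested and a threshold of 0.05. Folds are on that log2(value + 1) scale, which understates changes of low genes. The sex difference is the interaction over the 4 groups. A count test was the first choice had the tables held counts; recovered reads tested with edgeR 4.0.16 or DESeq2 1.42.0, other pseudocounts, filters and scalings, the first library alone and omission of each mouse were alternatives. The fit was tested on simulated data.

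Bin reads were summed over a mouse's libraries and divided by the gene's reads or size factors. The lists were 20 family members and partners, 36 genes with known targets and markers of 10 cell types or tissues. Named are all 10 regulators, partners past the threshold plus the 2 most abundant others, and 5 target genes per sex with the smallest authors' bin p. The 3 genes most like Rbfox1 and Nova1 were added. The regulators, lists and this rule were chosen with earlier results of these data known.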

Additional observations from a re-analysis of the deposited data

Results flagged for a closer look

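A few mice stood apart within their own group of 5, by a gap to the nearest mouse that exceeded the 95% critical value of Dixon's test. Of 52 groups checked, 4 were marked, where chance marks about 1 in 20. Mbnl1 in ko_m_106 was at 1723.5 normalized counts, against 1549.7 to 1585 in the other knockout males. Mbnl2 in wt_m_125 was at 1673.5, against 1461 to 1520.2 in the other wildtype males. Rbm24 in wt_f_144, one of the 3 females with Myl7 RNA, was at 1090.05, against 1386 to 1491 in the other wildtype females. Rbm24 bin 1 in wt_m_139 was at 79.0 reads per 1000 gene reads, against 105 to 114 in the other wildtype males. No regulator passed the threshold for a difference between the sexes.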

How the results depend on the processing

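Rbfox1, Nova1 and Celf2 kept direction and call in both sexes, and Celf1 in females, under every alternative and every omission of 1 mouse. The count of regulators past the threshold stayed at 4 or 5 in females (5 in the authors' deposited test, which adds Mbnl1) and at 0 for the sex difference. In males it was 3, but 4 without wt_m_139, ko_m_127 or ko_m_106 (Celf1 added), 5 in DESeq2 on recovered reads, which adds Celf1 and Mbnl1, and 6 in the authors' deposited test, which adds Mbnl2 as well. Signs turned only where the main value was near 0. For Ptbp1 in males the log2 change was 0.012 in edgeR, 0.0076 in DESeq2, 0.025 with TMM scaling and 0.030 with the first library alone, and -0.075 to 0.045 with 1 mouse left out. With 1 mouse left out, Rbm24 in males ran from -0.068 to 0.012 and Rbpms from -0.11 to 0.035. For the sex difference of Rbfox1 the values were 0.028 in edgeR, 0.035 in DESeq2, 0.0035 with pseudocount 10, 0.029 with TMM scaling and 0.11 without the females with Myl7. For that of Rbfox2 they were 0.010 with TMM scaling and 0.029 with the first library alone. With 1 mouse left out, the sex difference ran from -0.088 to 0.13 for Rbfox1, -0.051 to 0.045 for Rbfox2, -0.018 to 0.078 for Celf1, -0.012 to 0.12 for Ptbp1 and -0.017 to 0.13 for Rbpms. The cause was not tested. No paired analysis was possible because mouse numbers are not shared between groups.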
